A study of Mus musculus with 4 samples.

Results

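Chaperones fold new proteins, and the unfolded protein response raises their transcription when folding in the endoplasmic reticulum falls behind. The 34 genes described here were chosen by name from the 31053 genes listed in the files. They comprise 16 endoplasmic reticulum chaperones and folding factors, 9 stress transcription factors with their amino acid targets, and 9 cytosolic or mitochondrial heat shock genes. All 34 had UMIs, counts of single tagged RNA molecules, in these data. They were followed in leukocytes of the mouse brain hemisphere after a stroke. C57/BL6 mice underwent transient occlusion of the middle cerebral artery (tMCAO), in which a brain artery is blocked and then reopened, and leukocytes were sorted by high staining for the surface protein CD45 either 14 or 5 days later. Each day has 2 libraries of single cells made with 10x 3' v2 reagents, so all 4 libraries come from operated mice, and no unoperated group is used here. The labels do not say how many mice a library holds. The p-values between days therefore measure the spread between libraries, which may be partly technical. Tests that compare cell classes take out shared library differences, and their p-values measure the spread that remains, which may be technical too.

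In the endoplasmic reticulum, Hspa5 (BiP) holds unfolded chains and keeps the stress sensors silent until such chains draw it away. The sensor IRE1 then splices the message of Xbp1, the sensor ATF6 is cut into a transcription factor, and the kinase PERK slows translation while ATF4 is made. XBP1 and ATF6 drive chaperone genes. ATF4 drives amino acid supply genes and Ddit3 (CHOP), a factor tied to cell death under lasting stress, and it also answers amino acid shortage and other stresses outside the endoplasmic reticulum. Heat shock genes of the cytosol follow HSF1. Cells that secrete much protein, such as plasma cells and plasmacytoid dendritic cells, are known for high levels of the endoplasmic reticulum group.

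Cells were assigned to classes by UMIs of marker genes, none of which is among the 34 genes, and UMIs were summed per class and library. The libraries held 2313 to 3486 barcodes and 9288054 to 13610119 UMIs, of which the 34 genes took between 0.688% and 0.880% (day 14) and between 0.729% and 0.739% (day 5). Of 10925 barcodes, 1222 carried markers of more than 1 lineage, 1739 reached no gate and 84 were of low quality, and the others fell into 11 classes. In 8 classes every library had 20 or more cells, and these were tested: T cells, NK cells, B cells, microglia, monocytes or macrophages, dendritic cells (DC), plasmacytoid DC and neutrophils. By number of cells, their smallest sums on day 14 came from 27 plasmacytoid DC and from 34 and 33 neutrophils. On day 5 the smallest came from 21 plasmacytoid DC and from 36 and 33 T cells. In 7 of the 8 classes each library lay above all libraries of the other tested classes in its own marker list, with 8634 to 11150 CPM (UMIs scaled to the total UMIs of the class in a library, in the usual unit) for plasmacytoid DC, for example, against at most 3530 CPM in the other tested classes. The exception was the monocyte or macrophage list, at 7919 to 11150 CPM in its own class and up to 8831 CPM in neutrophils. The lists hold the genes used for gating, so these values describe the gate and do not test it. The summed markers of astrocytes, neurons, oligodendrocytes and red cells were at most 77.6 CPM in a tested class. Pairs of libraries shared 5 to 16 barcode sequences, at most 0.692% of a library. In summed counts, fewer cells with a transcript and less transcript per cell cannot be told apart.

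The promoters of several endoplasmic reticulum genes carry the letters that unfolded protein response factors are known to read, and 6 windows are printed to show the elements of the 3 gene groups. Of the 34 genes, 29 had a RefSeq window of 250 bases before to 50 after the gene start (GRCm38.p6). Both strands were searched for the endoplasmic reticulum stress element (ERSE, CCAAT and CCACG with 9 bases between them), the shorter ERSE-II (ATTGG and CCACG with 1 base between them), the unfolded protein response element TGACGTGG, the amino acid response element TGATGNAA and the heat shock element (GAA, TTC and GAA with 2 bases between each). ERSE was found in 7 of the 14 endoplasmic reticulum genes with a window (Calr, Canx, Creld2, Dnajc3, Hsp90b1, Hspa5 and Pdia6), and in 37 of 27025 genes in the whole table (0.137%). ERSE-II was found in Dnajb11 and Herpud1, against 0.0444% of all genes, and TGACGTGG in none of the 29, against 0.714% of all genes. The amino acid element was in Asns, Chac1 and Trib3 among the 9 stress genes and in Herpud1, against 4.51% of all genes. The heat shock element was in Hspd1, Hspe1 and Hsph1 of the 6 heat shock genes with a window, against 0.662% of all genes. In the windows that follow, read along the gene from 5′ to 3′, capitals mark the fixed bases of a motif and the spacer stays in lower case. In Herpud1 the first capitals are the amino acid element on the other strand and the later ones ERSE-II. In Hsp90b1 the second ERSE is on the other strand. In Hspe1 a pair of overlapping heat shock elements lies in the stretch that its window shares with that of Hspd1, which is read the other way.
Hspa5, chr2:34771840-34772139, plus strand: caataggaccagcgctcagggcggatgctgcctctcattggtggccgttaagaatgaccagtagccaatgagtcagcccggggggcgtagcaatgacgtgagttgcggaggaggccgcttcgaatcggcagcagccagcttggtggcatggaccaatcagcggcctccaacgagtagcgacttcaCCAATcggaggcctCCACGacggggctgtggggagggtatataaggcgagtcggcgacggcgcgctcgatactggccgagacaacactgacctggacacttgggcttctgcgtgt
Hsp90b1, chr10:86705395-86705694, minus strand: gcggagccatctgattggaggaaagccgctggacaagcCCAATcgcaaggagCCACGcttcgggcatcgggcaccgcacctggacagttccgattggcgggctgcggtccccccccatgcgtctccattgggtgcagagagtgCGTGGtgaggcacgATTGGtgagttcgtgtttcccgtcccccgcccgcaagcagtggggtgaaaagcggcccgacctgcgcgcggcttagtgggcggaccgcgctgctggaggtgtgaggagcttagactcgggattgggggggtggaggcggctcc
Pdia6, chr12:17266339-17266638, plus strand: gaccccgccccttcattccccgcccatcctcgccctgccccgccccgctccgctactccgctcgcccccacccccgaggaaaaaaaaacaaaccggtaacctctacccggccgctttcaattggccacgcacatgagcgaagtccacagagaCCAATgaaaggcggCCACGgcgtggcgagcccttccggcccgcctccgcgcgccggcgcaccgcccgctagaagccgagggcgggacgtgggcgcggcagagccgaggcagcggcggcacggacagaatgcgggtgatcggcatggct
Herpud1, chr8:94386179-94386478, plus strand: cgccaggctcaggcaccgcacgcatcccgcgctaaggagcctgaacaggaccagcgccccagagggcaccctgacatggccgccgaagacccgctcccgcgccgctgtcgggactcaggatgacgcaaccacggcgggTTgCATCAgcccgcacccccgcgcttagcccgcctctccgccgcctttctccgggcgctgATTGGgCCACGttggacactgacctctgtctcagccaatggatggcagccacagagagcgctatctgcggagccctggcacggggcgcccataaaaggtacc
Asns, chr6:7693160-7693459, minus strand: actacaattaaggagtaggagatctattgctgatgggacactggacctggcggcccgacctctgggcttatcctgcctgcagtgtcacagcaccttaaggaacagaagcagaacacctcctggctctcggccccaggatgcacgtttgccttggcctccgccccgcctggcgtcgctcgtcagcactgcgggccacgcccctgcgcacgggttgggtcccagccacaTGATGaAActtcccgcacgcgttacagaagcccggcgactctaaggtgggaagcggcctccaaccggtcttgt
Hspe1, chr1:55087898-55088197, plus strand: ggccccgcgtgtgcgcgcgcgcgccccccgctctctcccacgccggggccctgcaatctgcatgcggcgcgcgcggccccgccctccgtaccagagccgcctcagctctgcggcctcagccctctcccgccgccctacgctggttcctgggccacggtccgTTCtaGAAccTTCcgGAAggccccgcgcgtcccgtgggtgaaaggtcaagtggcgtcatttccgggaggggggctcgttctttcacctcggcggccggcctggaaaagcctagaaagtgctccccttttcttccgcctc
A match is a description of letters, not a bound site, and no match says only that the letters are not in this window.

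The endoplasmic reticulum genes differed in level between classes. Summed over the 16 genes, plasmacytoid DC had 4222 and 4085 CPM on day 14 and 4537 and 5123 CPM on day 5. Microglia had 3632 and 4121 CPM on day 14 and 4062 and 4157 CPM on day 5. Monocytes or macrophages and DC had 2944 to 4139 CPM and the 3 lymphocyte classes 1506 to 2670 CPM, and neutrophils had 1242 and 1921 CPM on day 14 and 1550 and 1520 CPM on day 5. The libraries of plasmacytoid DC, DC, monocytes or macrophages and microglia thus lay above those of the 3 tested lymphocyte classes and neutrophils with no overlap. This did not extend to gamma delta T cells, which were not tested, with 8 and 6 cells on day 5. They had 2956 and 3477 CPM on day 14 and 2564 and 4589 CPM on day 5, within or near the range of the higher classes. The 9 cells gated as plasma cells, the class best known for this program, were too few to test and had 10350 CPM in 1 day 14 library and 7734 and 5355 CPM on day 5.

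**Figure D1:**
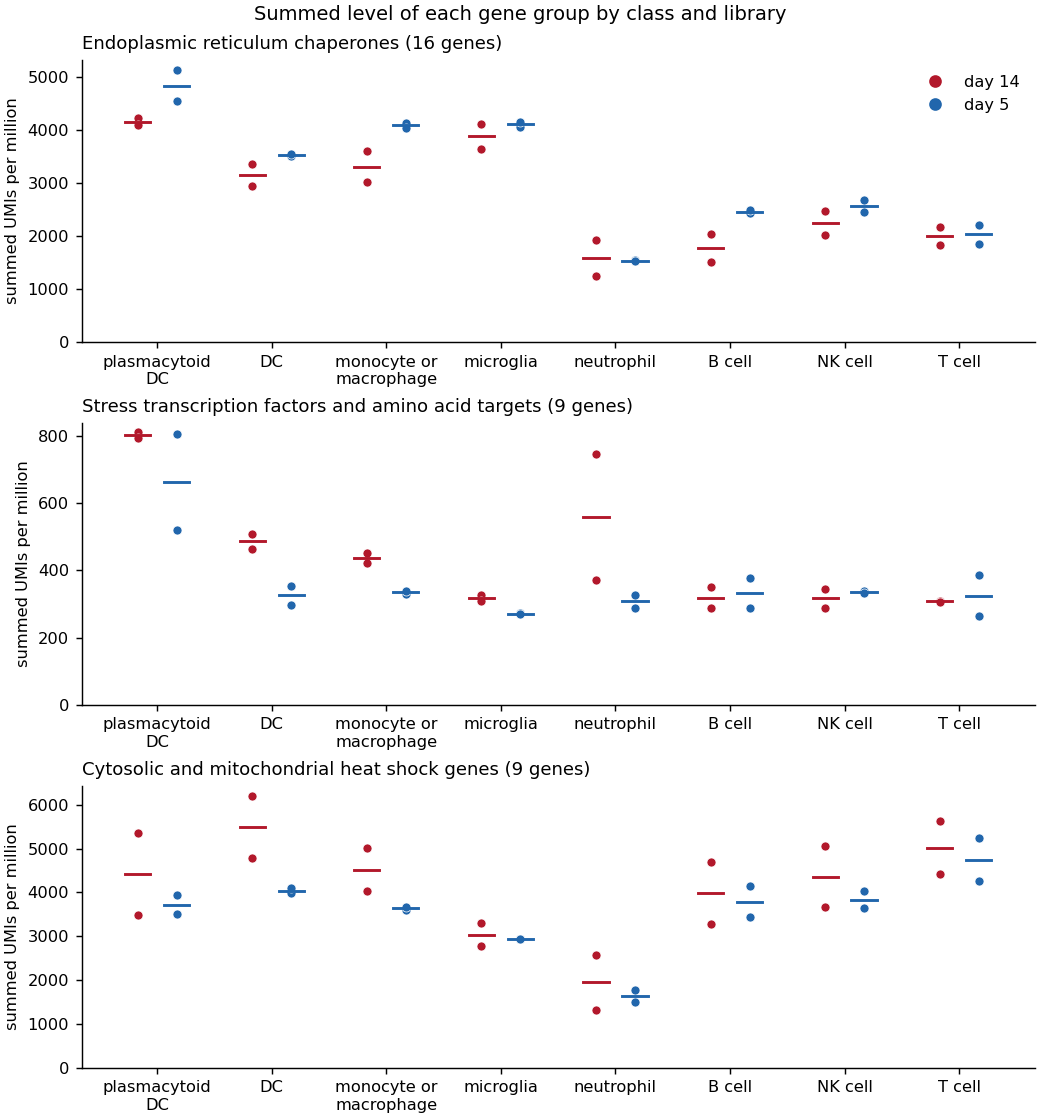
Summed CPM, UMIs scaled to the total of the class and library, for the 16 endoplasmic reticulum genes, 9 stress genes and 9 heat shock genes in 8 classes. Each point is 1 library, bars are means of the 2 libraries of a day, red is day 14 and blue is day 5; endoplasmic reticulum sums are 2944 or more in plasmacytoid DC, DC, monocytes or macrophages and microglia and at most 2670 elsewhere, and the day 14 points of the stress genes lie above the day 5 points in DC, monocytes or macrophages, microglia and neutrophils.

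Each class was compared with the mean of the other 7 by edgeR's quasi-likelihood test over 7742 genes, with the library as a block. Called means an adjusted p under 0.05 (Benjamini-Hochberg over all genes tested), and ± after a log2 fold change is its standard error. Of the 16 endoplasmic reticulum genes, 15 passed the filter on low counts, Hyou1 being the exception. In plasmacytoid DC 9 of the 15 were higher and none lower, against 11.4% and 10.4% of all genes tested. In DC 7 were higher and none lower, against 21.3% and 9.3% of all genes. In monocytes or macrophages 9 were higher and 1 lower, against 27.4% and 13.4%. In microglia 11 were higher and none lower, against 28.1% and 14.2%. Neutrophils had none higher and 11 lower, against 16.4% and 15.2% of all genes. Calls in either direction covered 31.6% of all genes in neutrophils, 21.8% in plasmacytoid DC, 30.6% in DC, 40.8% in monocytes or macrophages, 42.3% in microglia, 27% in B cells, 35.4% in NK cells and 34.4% in T cells. B cells had 1 higher and 8 lower, against 14.1% and 12.9%. NK cells had none higher and 5 lower, against 19.1% and 16.2%, and T cells none higher and 12 lower, against 19% and 15.5%. The median log2 fold change of the 15 genes was 0.55 in plasmacytoid DC against -0.09 over all genes, 0.69 in microglia against 0.06, -0.76 in neutrophils against -0.19, and -0.52 in T cells against 0.04. Over all 29 members tested, the 20 calls in T cells became 12 without day 14 replicate 1, and the 18 in neutrophils became 11 without day 14 replicate 2. Plasmacytoid DC carried summed monocyte markers of 4426 and 6684 CPM on day 14 and 1769 and 1985 CPM on day 5, and their part in these values was not tested.

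**Figure D2:**
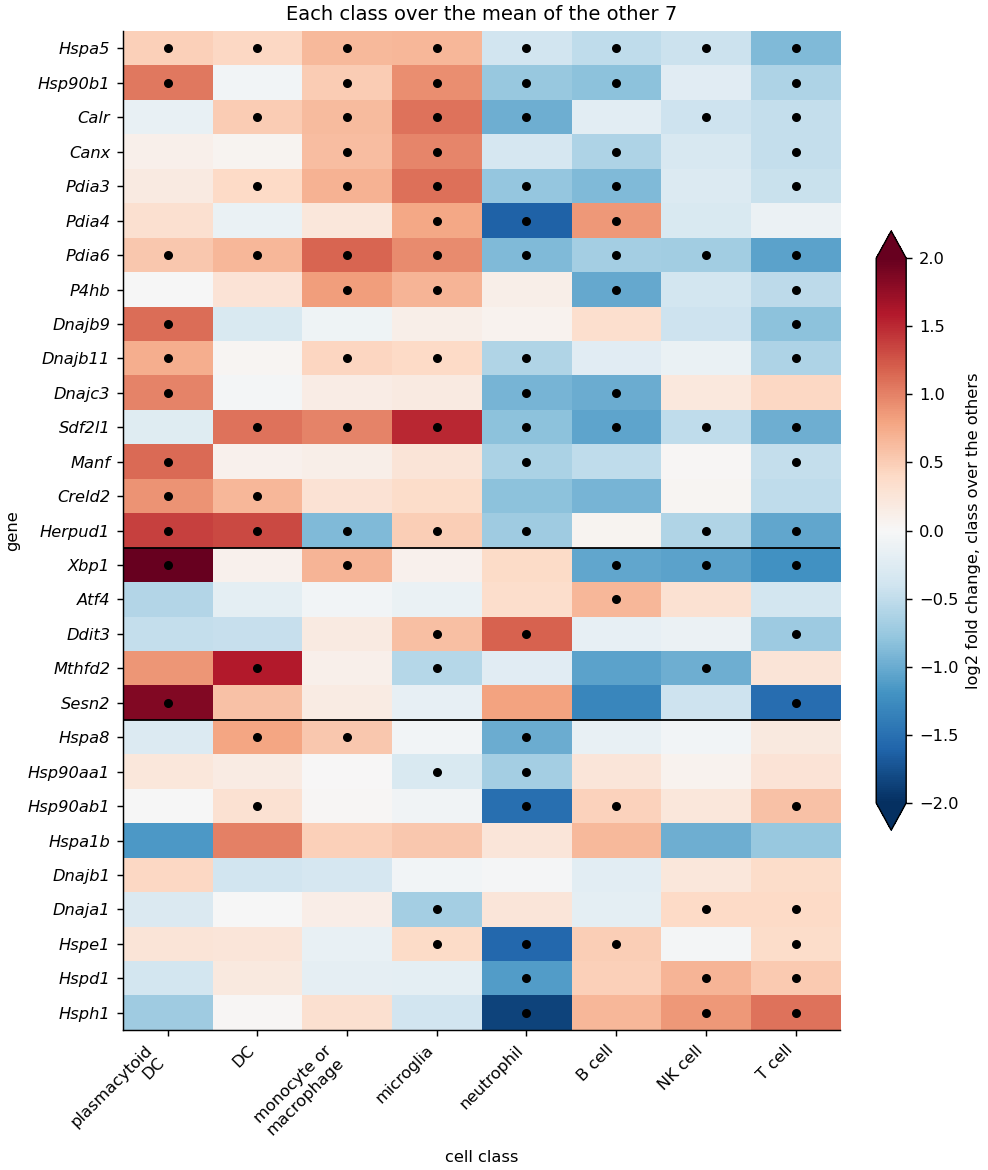
Log2 fold change of each class over the mean of the other 7 for the 29 genes that passed the filter. Red is higher in the named class, blue is lower, a black dot marks an adjusted p under 0.05, and lines part the endoplasmic reticulum, stress and heat shock genes; microglia and monocytes or macrophages are red for general chaperones such as Calr and Pdia3, and plasmacytoid DC for Xbp1, Herpud1, Manf and Dnajb9.

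Hspa5 and Pdia6 were called higher in all 4 classes with high sums, and other folding factors in some of them; differences between these 4 classes were not tested. Hspa5 was higher in microglia (log2 0.67 ± 0.099), monocytes or macrophages (0.65 ± 0.098), plasmacytoid DC (0.48 ± 0.12) and DC (0.42 ± 0.10), and lower in T cells (-0.89 ± 0.13), B cells (-0.52 ± 0.13), NK cells (-0.44 ± 0.12) and neutrophils (-0.38 ± 0.13). Hsp90b1 (GRP94), the endoplasmic reticulum HSP90 that folds toll-like receptors and integrins, had 627 and 540 CPM on day 14 and 645 and 921 CPM on day 5 in plasmacytoid DC. All 4 values lay above the highest of the other 7 classes, 490 CPM (log2 1.05 ± 0.13, adjusted p = 1.62e-08 by edgeR's quasi-likelihood test). Microglia were also higher in Hsp90b1 (0.92 ± 0.11).

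The lectin chaperones Calr and Canx, which hold sugar-tagged chains, and their partner disulfide isomerase Pdia3 had their highest mean in microglia among the tested classes. Calr had 637 and 761 CPM on day 14 and 711 and 708 CPM on day 5 in microglia, a log2 fold change over the other classes of 1.09 ± 0.099. Pdia3 was higher there by 1.11 ± 0.11 and Canx by 0.98. For each of these 3 genes the microglia libraries overlapped those of the other tested classes. All 3 were also called higher in monocytes or macrophages (Calr 0.63, Canx 0.61 and Pdia3 0.69). In DC Calr (0.50) and Pdia3 (0.39) were called higher as well. None of these 3 genes was called in plasmacytoid DC, where the log2 fold changes were -0.15, 0.10 and 0.17 for Calr, Canx and Pdia3. Among the other disulfide isomerases, Pdia6 was higher in monocytes or macrophages by 1.16 ± 0.10, in microglia by 0.94, in DC by 0.67 and in plasmacytoid DC by 0.55. Pdia4 was higher in B cells by 0.87 ± 0.21 and in microglia by 0.77 ± 0.14, and lower in neutrophils by -1.62 ± 0.32 on the log2 scale. P4hb was higher in monocytes or macrophages (0.83) and microglia (0.69) and lower in B cells (-1.03) and T cells (-0.52).

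Sdf2l1, a partner of the endoplasmic reticulum DNAJ proteins, was called higher in 3 of the 4 myeloid classes other than plasmacytoid DC, and lower in neutrophils (-0.83 ± 0.21). It had 265 and 359 CPM on day 14 and 311 and 300 CPM on day 5 in microglia (log2 1.51 ± 0.12 over the other classes), and was also higher in DC (1.09 ± 0.12) and monocytes or macrophages (0.98). Its log2 fold change in plasmacytoid DC was -0.24, which did not pass the test. Among the cochaperones of Hspa5, Dnajb9 had 162 and 144 CPM on day 14 and 167 and 143 CPM on day 5 in plasmacytoid DC. All lay above 142 CPM, the highest value in the other tested classes (1.11 ± 0.18). Dnajc3, which also restrains PERK, had 143 to 187 CPM in plasmacytoid DC, against at most 121 CPM in the other tested classes (0.99). Dnajb11 was higher in plasmacytoid DC by 0.72, in monocytes or macrophages by 0.43 and in microglia by 0.39. Dnajb9 and Dnajc3 were called higher in no other class.

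Manf, a secreted stress-induced factor, had 494 and 355 CPM on day 14 and 395 and 537 CPM on day 5 in plasmacytoid DC. The highest value in the other tested classes was 268 CPM (1.13 ± 0.17). Creld2, a secreted stress-induced factor as well, was higher in plasmacytoid DC (0.90) and DC (0.66). Herpud1, which helps to degrade misfolded proteins, split the myeloid cells. It had 337 and 253 CPM on day 14 and 239 and 429 CPM on day 5 in plasmacytoid DC (1.37 ± 0.17) and 246 and 239 CPM on day 14 and 269 and 225 CPM on day 5 in DC (1.32 ± 0.12). Monocytes or macrophages had 59.1 and 68.5 CPM on day 14 and 55.6 and 71.9 CPM on day 5, which was lower than the mean of the other classes (-0.88 ± 0.14). Herpud1 was also called higher in microglia (0.49 ± 0.13) and lower in neutrophils (-0.71 ± 0.23). Hyou1, a large chaperone of the same compartment, stayed at 28.4 CPM or less in every class and library tested.

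Between days, 1 endoplasmic reticulum gene was called in 1 class. Day 14 was compared with day 5 within each class by edgeR's quasi-likelihood test with day as the only term. In DC, Pdia6 had 223 and 228 CPM on day 14 and 350 and 350 CPM on day 5. The day 14 libraries were the lower ones with no overlap (log2 -0.58 ± 0.11, adjusted p = 0.00216), and each of the 4 fits without a library kept the call (-0.60 to -0.54). This was 1 of 16 tested members of the group, against 7.04% of all genes called lower in DC. In monocytes or macrophages Pdia6 had 268 and 336 CPM on day 14 and 484 and 463 CPM on day 5, and did not pass the test (adjusted p = 0.0629). Of the 16 genes tested, 11 had a log2 fold change above 0 in microglia, 5 in DC and 3 in monocytes or macrophages. The sum over the 16 genes was lower on day 14 with no overlap in B cells, monocytes or macrophages, DC and plasmacytoid DC, and the 2 days overlapped in T cells, NK cells, microglia and neutrophils. These sums are CPM without the scaling factors of the fits. In the order of the classes without overlap, the factor of day 14 over day 5 was 0.82, 0.94, 0.96 and 0.94. With scaling, the median log2 fold changes of the members tested were -0.26, -0.14, -0.044 and -0.11, against -0.028, -0.0023, -0.0014 and -0.012 for all genes. The share of all genes without overlap was not counted.

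**Figure D3:**
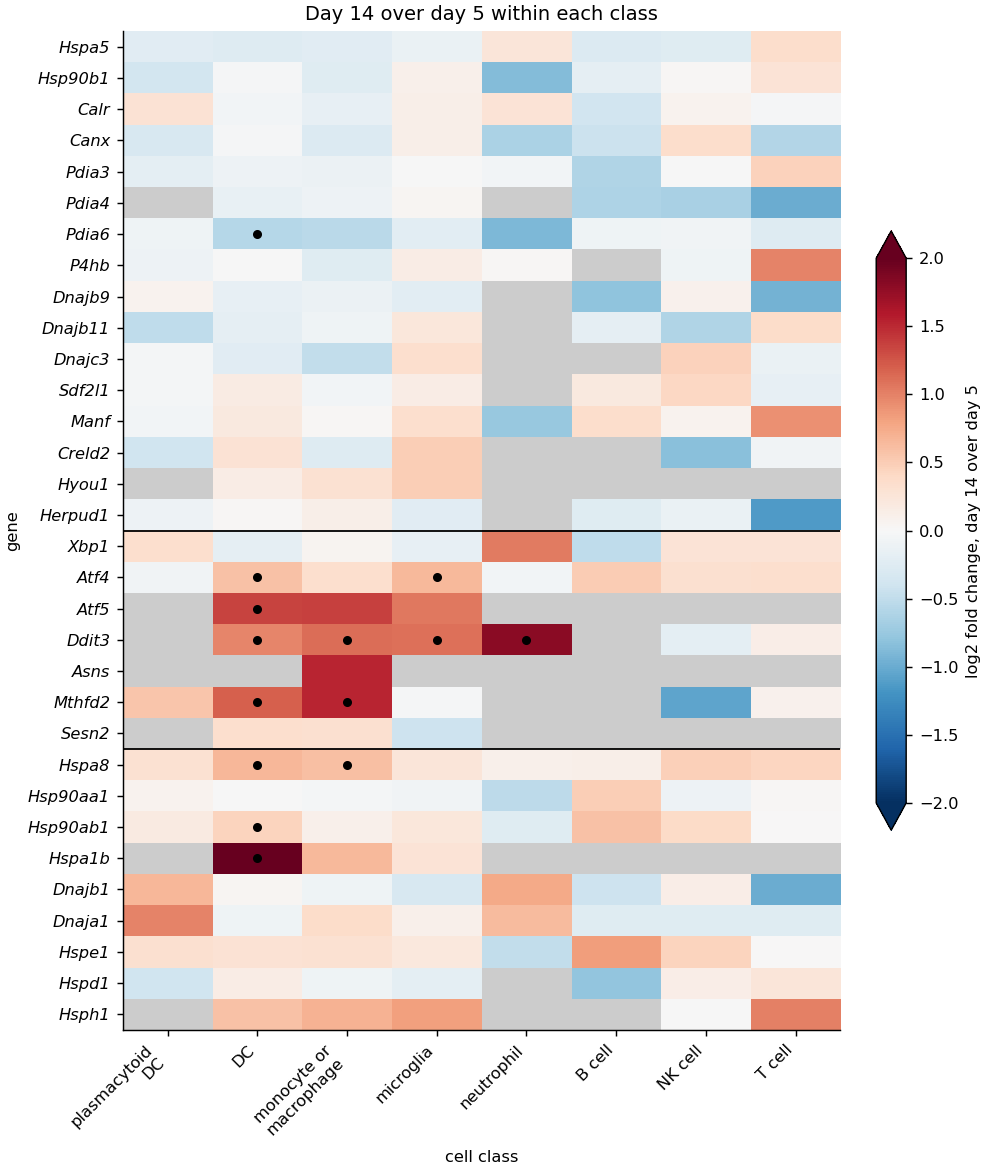
Log2 fold change of day 14 over day 5 within each of 8 classes for the members tested in at least 1 class. Red is higher on day 14, blue is lower, grey was not tested because of low counts, a black dot marks an adjusted p under 0.05, and lines part the endoplasmic reticulum, stress and heat shock genes; 4 of the 14 dots are Ddit3, and 8 are in DC, where Hspa1b at 3.83 lies past the end of the colour scale.

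Stress transcription factors and their targets were lower in level than the other groups and passed the filter less often, with 5 of 9 genes tested between classes. Plasma cells, which were not tested, had summed stress levels of 1832 CPM in 1 day 14 library and 1805 and 1432 CPM on day 5. Plasmacytoid DC had 520 to 812 CPM. Among the tested classes Xbp1 marked plasmacytoid DC, with 522 and 447 CPM on day 14 and 354 and 447 CPM on day 5. All 4 values lay above the 259 CPM that was highest in any other tested class (log2 2.07 ± 0.15, adjusted p = 8.18e-15 by edgeR's quasi-likelihood test). Counts at the 3' end do not tell spliced from unspliced Xbp1. It was also higher in monocytes or macrophages (0.69 ± 0.12) and lower in T cells (-1.21 ± 0.18), NK cells (-1.06 ± 0.18) and B cells (-1.04 ± 0.22). Sesn2, a stress-induced inhibitor of mTORC1 signalling, was higher in plasmacytoid DC (1.86 ± 0.50) and lower in T cells (-1.52 ± 0.54). Its counts were low, with 366 UMIs over all barcodes. It had 10.4 to 44.7 CPM in plasmacytoid DC and up to 20.2 CPM in the other tested classes, with overlap, and 0 to 20.2 CPM in T cells.

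Mthfd2, the mitochondrial folate enzyme that ATF4 induces, was called higher in DC and in no other class. It had 191 and 172 CPM on day 14 and 88.9 and 73.7 CPM on day 5 there (log2 1.58 ± 0.19 over the other classes). These values overlapped those of plasmacytoid DC (62.4 to 135 CPM) and T cells (60.7 to 96.8 CPM). In plasmacytoid DC the log2 fold change was 0.89 ± 0.33 (adjusted p = 0.0508 by edgeR's quasi-likelihood test). Mthfd2 was lower in NK cells (-0.97 ± 0.32) and microglia (-0.56 ± 0.23). Ddit3 was higher in neutrophils (1.18 ± 0.29) and microglia (0.60 ± 0.17) and lower in T cells (-0.73 ± 0.24). Atf4 was called higher in B cells (0.67 ± 0.20) and in no other class. Atf5, Trib3, Asns and Chac1 did not pass the filter in this comparison. Chac1, a glutathione-degrading target of ATF4, had 3.48 to 15.5 CPM in neutrophils and at most 3.1 CPM in every other tested class. Trib3, an ATF4 target that inhibits AKT, had no UMI in the 4 neutrophil sums, and Asns, the asparagine synthetase, none in the 4 sums of plasmacytoid DC. All were rare, with 57 UMIs of Chac1, 105 of Trib3 and 233 of Asns over all barcodes. The neutrophil sums held 64419 to 574200 UMIs each, and those of plasmacytoid DC 96095 to 210587. The zeros therefore do not show that a class lacks the gene, and the Chac1 values rest on few UMIs.

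Between days the stress group gave 9 of the 14 calls among all 34 genes. In DC 31 members were tested, 7 were called higher on day 14 and 1 lower, against 8.16% and 7.04% of all genes, and 4 of the 7 are stress genes. In monocytes or macrophages 3 of 32 members were called higher and none lower, against 5.34% and 2.15% of all genes, with 2 stress genes among them. In microglia 2 of 31 were called higher and none lower, against 2.54% and 1.13%, both of them stress genes. In neutrophils 1 of 17 was called higher and none lower, against 12.9% and 6.16%. None was called among 27 members in T cells, 27 in NK cells, 21 in B cells and 24 in plasmacytoid DC, where 5, 3, 2 and 1 had an unadjusted p under 0.05 and where DESeq2 also called none. Of all genes, 0.443% were called higher and 0.166% lower in T cells (0.609% in all), 3.88% and 1.54% in NK cells (5.42%), 3.82% and 0.519% in B cells (4.34%), and 1.04% and 0% in plasmacytoid DC (1.04%). Calls in either direction covered 15.2% of all genes in DC, 7.49% in monocytes or macrophages, 3.67% in microglia and 19.1% in neutrophils. The median log2 fold change of the stress genes tested was 1.12 in monocytes or macrophages, 0.78 in DC, 1.04 in neutrophils and 0.31 in microglia, where that of all genes was -0.0023, -0.0014, -0.029 and -0.0084. The number of stress genes behind these medians was 7, 6, 3 and 6.

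Ddit3 was called in 4 myeloid classes. In DC it had 35.7 and 34.6 CPM on day 14 and 18.5 and 18.7 CPM on day 5 (log2 0.97 ± 0.25, adjusted p = 0.0156). The values were 48.6 and 56.3 CPM on day 14 and 31.1 and 20.2 CPM on day 5 in monocytes or macrophages (1.12 ± 0.23, adjusted p = 0.0192). Both day 14 libraries lay above both day 5 libraries in these classes. In microglia Ddit3 had 74.2 and 47.0 CPM on day 14 and 30.6 and 33.7 CPM on day 5 (1.10 ± 0.22, adjusted p = 0.0185). In neutrophils it had 140 and 137 CPM on day 14 and 48.3 and 26.1 CPM on day 5, from 18 UMIs on day 14 and 25 on day 5 (1.81 ± 0.42, adjusted p = 0.0294). The ratio of the neutrophil sums was 4.33, with a 95% counting interval of 2.22 to 8.26 that covers counting error only. Summed monocyte or macrophage markers in neutrophils were 1056 and 808 CPM on day 14 and 5363 and 8831 CPM on day 5, and their part in this result was not tested. The order of the days was the same in all 4 classes, and the libraries did not overlap. The calls of Ddit3 were not stable to leaving out a library. The DC call was lost without day 5 replicate 1 (adjusted p = 0.0898). The monocyte or macrophage call was lost without day 14 replicate 2 (0.0982) or day 5 replicate 2 (0.0554). The microglia call was lost without day 14 replicate 1, where the log2 fold change was 0.70, and without either day 5 replicate. The neutrophil call was lost without either day 14 replicate (adjusted p = 0.159 at most), and Ddit3 was not tested there without a day 5 replicate. DESeq2 lost the call in DC (0.295), microglia (0.0561) and neutrophils (0.179). The microglia call was also lost with the replicate block (0.0530) and thinning (0.176), the monocyte or macrophage call with classes from clusters (0.103), and the neutrophil call with no filter on low counts (0.0621).

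Thinned to 1000 UMIs per cell, 7.41% and 6.93% of microglia held a Ddit3 UMI on day 14, against 3.61% and 3.90% on day 5. Without thinning the shares were 22.2% and 19.8% on day 14, against 11.2% and 11.2% on day 5. The exact 95% binomial intervals of the thinned shares, which cover counting error only, ran between 4.11% and 12.1% and between 2.83% and 13.8% in day 14 microglia, and between 2.41% and 5.18% and between 2.93% and 5.08% in day 5 microglia, so that they overlapped. Of T cells, 3.10% and 4.58% held one after thinning on day 14, against 2.86% and 6.45% on day 5, and no class is known to lack Ddit3, so background from free RNA was not measured.

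Mthfd2 rose in DC and in monocytes or macrophages. Beside the DC values given above (log2 1.20 ± 0.15, adjusted p = 4.90e-05), monocytes or macrophages had 75.5 and 79.5 CPM on day 14 and 22.5 and 36.3 CPM on day 5 (1.53 ± 0.22, adjusted p = 0.00331). The libraries of the days did not overlap in either class, and each of the 4 fits without a library kept each call, with log2 fold changes of 1.09 to 1.34 in DC and 1.20 to 1.87 in monocytes or macrophages. With cells thinned to 1000 UMIs the DC call was lost (0.72, adjusted p = 0.106). In microglia Mthfd2 had 25.2 and 26.3 CPM on day 14 and 37.3 and 22.0 CPM on day 5, with overlap. The day difference of Mthfd2 differed between the 8 classes (adjusted p = 0.00070792 for the class by day term, edgeR's quasi-likelihood F test), although not without day 5 replicate 1 (adjusted p = 0.0663).

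Atf4 was higher on day 14 in DC, with 131 and 117 CPM on day 14 and 89.8 and 79.9 CPM on day 5 (log2 0.59 ± 0.16, adjusted p = 0.0181). Microglia had 123 and 113 CPM on day 14 and 79.3 and 87.3 CPM on day 5 (0.64 ± 0.15, adjusted p = 0.0347). The libraries did not overlap in either class. The DC call was lost without day 5 replicate 2 (adjusted p = 0.101), and the microglia call was kept, among the 4 fits without a library, only without day 14 replicate 2. The DC call was also lost with DESeq2 (0.197), 1 more UMI in each gate (0.0520) and thinning (0.493). The microglia call was also lost with DESeq2 (0.164), the replicate block (0.126), classes from clusters (0.127) and thinning (0.352). Atf5, a relative of Atf4 under the same translational control, was called in DC (1.35) from 28 and 30 UMIs on day 14 and 11 and 6 UMIs on day 5. That call was lost without day 14 replicate 1 (adjusted p = 0.149) or day 5 replicate 2 (0.122). Atf5 had 10.50 and 14.0 CPM on day 14 and 5.10 and 5.38 CPM on day 5 in monocytes or macrophages, and the adjusted p was 0.0557.

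**Figure D4:**
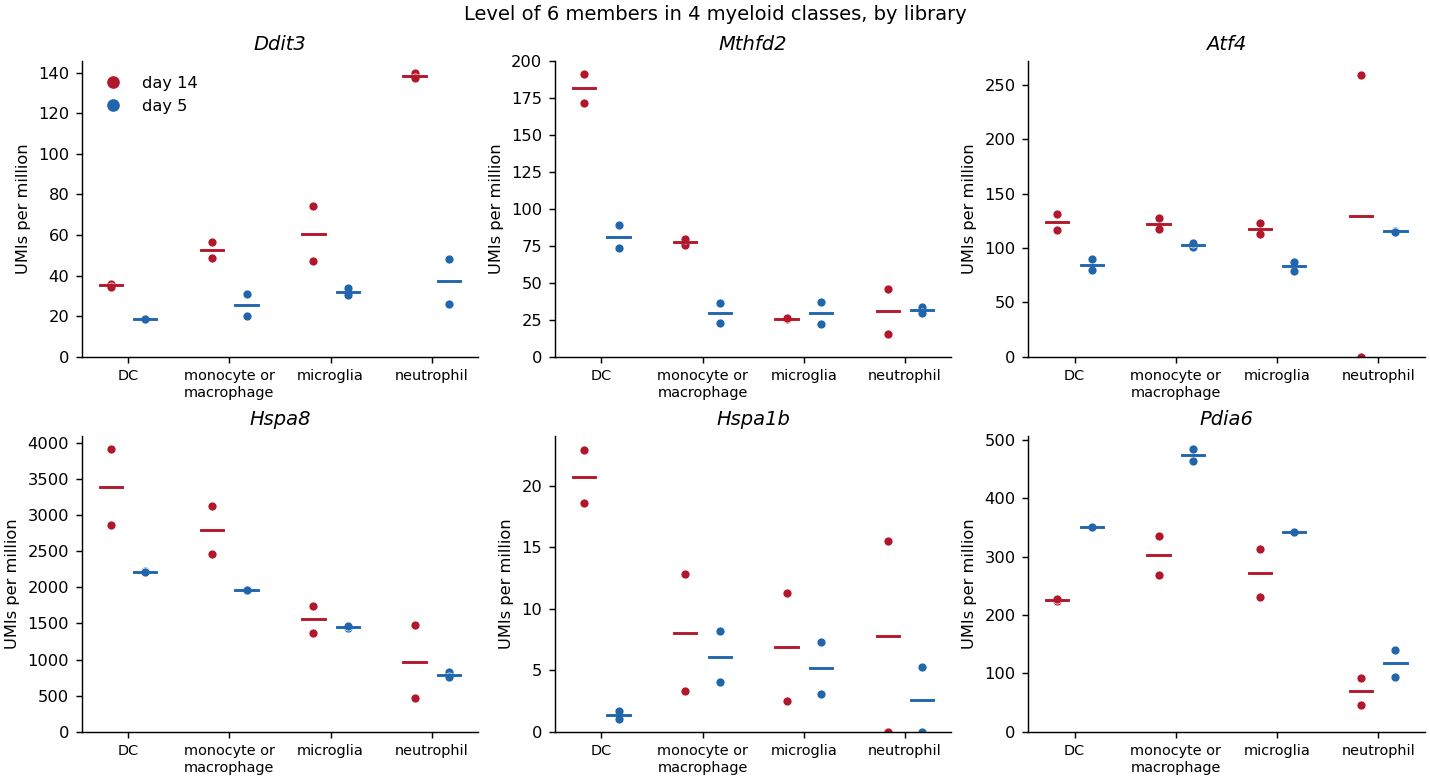
CPM, UMIs scaled to the total of the class and library, for Ddit3, Mthfd2, Atf4, Hspa8, Hspa1b and Pdia6 in 4 myeloid classes, each panel with its own axis from 0. Points are libraries, bars are means of the 2 libraries of a day, red is day 14 and blue is day 5; the Ddit3 points of day 14 lie above those of day 5 in all 4 classes, and the Pdia6 points below.

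Heat shock genes were spread over the classes in another way. Summed over the 9 genes, T cells had 4418 and 5629 CPM on day 14 and 5230 and 4260 CPM on day 5, and DC had 4779 and 6195 CPM on day 14 and 3986 and 4096 CPM on day 5. Microglia, high in endoplasmic reticulum genes, had 2783 and 3292 CPM on day 14 and 2931 and 2939 CPM on day 5. Neutrophils had 1319 and 2576 CPM on day 14 and 1772 and 1496 CPM on day 5, all under the 2783 CPM that was the lowest value in the other 7 tested classes. All 9 genes were tested between classes, and 5 were higher in T cells (19% of all genes), 3 in NK cells (19.1%) and 2 in B cells (14.1%). In DC 2 were higher (21.3%), in microglia 1 (28.1%) and in monocytes or macrophages 1 (27.4%), shares near or below those of all genes. In neutrophils 6 were lower, against 15.2% of all genes, and in microglia 2 (Hsp90aa1 and Dnaja1), against 14.2%. None was called in plasmacytoid DC.

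Hsp90ab1, the constitutive cytosolic HSP90 that folds kinases and steroid receptors, was higher in T cells (0.59), B cells (0.45) and DC (0.31). In neutrophils it had 202 and 290 CPM on day 14 and 227 and 263 CPM on day 5, against 599 CPM or more in every library of the other tested classes (-1.51 ± 0.16). The mitochondrial chaperonin Hspd1 and its lid Hspe1 share the promoter region printed above. Hspe1 was lower in neutrophils by -1.57 ± 0.19 and Hspd1 by -1.12 ± 0.30 on the log2 scale, and both were higher in T cells (0.36 and 0.52). The Hspd1 difference in neutrophils was lost without day 5 replicate 2 (adjusted p = 0.134). Hsph1 (HSP110), which resets HSP70, was higher in T cells (1.08 ± 0.25) and NK cells (0.86 ± 0.27) and lower in neutrophils (-1.85 ± 0.63). The cochaperone Dnaja1 was higher in T cells (0.41) and NK cells (0.40) and lower in microglia (-0.68). Hspa8 (HSC70), the constitutive cytosolic HSP70, was higher in DC (0.78 ± 0.12) and monocytes or macrophages (0.54 ± 0.12) and lower in neutrophils (-0.99 ± 0.15).

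Between days, Hspa8 was called in DC and in monocytes or macrophages. DC had 2859 and 3920 CPM on day 14 and 2222 and 2211 CPM on day 5 (log2 0.67 ± 0.11, adjusted p = 0.000455). Monocytes or macrophages had 2457 and 3125 CPM on day 14 and 1956 and 1969 CPM on day 5 (0.61 ± 0.14, adjusted p = 0.0354). Both day 14 libraries were above both day 5 libraries, and day 14 replicate 2 was the highest. Without day 14 replicate 2 the log2 fold change was 0.41 in DC, where the call held, and 0.39 in monocytes or macrophages, where it did not (adjusted p = 0.0963). The monocyte or macrophage call was also lost without either day 5 replicate. Day 14 replicate 2 had the highest heat shock sum in all 8 classes, and it also had the highest median UMI count per barcode, 4230 against 2882 to 3502 in the other 3 libraries. The part of depth in these sums was not tested. Some reads of Hspa8 may have been lost or split, since 66.8% of the 60-base windows of its transcript ends recur in transcripts of other genes, mostly pseudogenes. The share was 44.8% for Hsp90aa1, 32.3% for Dnaja1, 29.5% for Hspd1 and 24.3% for Hspe1, and 0% for Hspa1b.

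Hspa1b, an inducible HSP70, had few UMIs on day 5 in DC. It had 25 and 36 UMIs on day 14 (22.9 and 18.6 CPM) and 2 and 1 UMIs on day 5 (1.68 and 1.04 CPM). The ratio of the sums was 14.5, with a 95% counting interval of 4.72 to 72.0 (adjusted p = 0.000146), and each of the 4 fits without a library kept the call. In monocytes or macrophages the values were 3.28 and 12.8 CPM on day 14 and 8.16 and 4.03 CPM on day 5, and in microglia 2.52 and 11.3 CPM on day 14 and 3.08 and 7.29 CPM on day 5. The days overlapped in both. Hsp90ab1 was called higher on day 14 in DC, with 916 and 1063 CPM on day 14 and 743 and 770 CPM on day 5 (0.45, adjusted p = 0.00474), and the call was lost with cells thinned to 1000 UMIs (0.29, adjusted p = 0.229). Of the 9 heat shock genes tested in DC 3 were called higher, against 8.16% of all genes, with a median log2 fold change of 0.30 against -0.0014 for all genes. The day difference varied between classes for Hspa8 (adjusted p = 0.045561 by edgeR) and Hsp90ab1 (adjusted p = 0.049558). Hspa8 missed the threshold without day 14 replicate 1 (0.174) or day 5 replicate 2 (0.252), and Hsp90ab1 without day 14 replicate 2 (0.367) or day 5 replicate 2 (0.558). Of 32 members tested for a class by day difference, 3 were called, against 11.1% of all genes, and none of the 16 endoplasmic reticulum genes was among them.

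The gated classes did not hold the same kinds of cell on both days, and the day calls were read again within clusters of cells made without the 34 genes. Of DC, 36.1% on day 14 and 69.3% on day 5 were in cluster 2, led by Cd209a and Clec10a. Cluster 11, led by Naaa and Xcr1, held 32.8% on day 14 and 12.97% on day 5, and cluster 16, led by Ccr7 and Fscn1, held 26.8% on day 14 and 12.5% on day 5. Summed DC markers were 3524 and 3996 CPM on day 14 and 2657 and 2678 CPM on day 5, and summed microglia markers 577 and 480 CPM on day 14 and 1224 and 1222 CPM on day 5. Within cluster 2, 5 of 28 members were called, against 6.63% of all genes, among them Mthfd2 (1.12 ± 0.28), Ddit3 (1.34 ± 0.36), Atf4 (0.77 ± 0.21) and Hspa8 (0.65 ± 0.13). Mthfd2 had 160 and 91.6 CPM on day 14 and 55.5 and 56.5 CPM on day 5 in those cells. Cluster 11 had none of 25 members called, against 2.72% of all genes, and its Mthfd2 was 180 and 166 CPM on day 14 and 131 and 98.5 CPM on day 5. In cluster 16 Mthfd2 was 216 and 329 CPM on day 14 and 271 and 193 CPM on day 5, with overlap, and 1 of 19 members was called, against 2.74% of all genes. It was Hspa5, with 186 and 147 CPM on day 14 and 319 and 449 CPM on day 5 (log2 -1.19 ± 0.28, adjusted p = 0.0300 by edgeR), which was called between days in no whole class. Pdia6 and Hsp90ab1 passed in none of the 3 DC clusters. The log2 fold change of Pdia6 was -0.46 ± 0.15 in cluster 2, -0.56 ± 0.17 in cluster 11 and -0.99 ± 0.41 in cluster 16, and that of Hsp90ab1 was 0.48 ± 0.13, 0.25 ± 0.15 and 0.18 ± 0.18 in the same order.

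Of monocytes or macrophages, 78.7% on day 14 and 17.2% on day 5 were in cluster 1, led by Cfb, Ms4a4c and Ly6c2, and the summed markers of microglia were 1130 and 1014 CPM on day 14 and 2201 and 2138 CPM on day 5 in the whole class. Within cluster 1 none of 27 members was called, against 1.82% of all genes. Mthfd2 was 71.0 and 74.0 CPM on day 14 and 33.8 and 41.3 CPM on day 5 there (log2 1.03 ± 0.30, adjusted p = 0.132). The log2 fold change of Ddit3 was 0.97 ± 0.36 there, against 1.12 in the whole class, and that of Hspa8 0.29 ± 0.13, against 0.61. In microglia, Ddit3 was called in cluster 10, led by Cd5l and Igf1 (42.9 and 45.9 CPM on day 14 and 13.2 and 12.4 CPM on day 5), and not in cluster 12, led by P2ry12 and Tmem119 (92.8 and 36.7 CPM on day 14 and 36.4 and 51.2 CPM on day 5). These were 1 of 26 members and none of 26, against 3.82% and 4.87% of all genes. Of neutrophils, 98.5% on day 14 and 42.9% on day 5 were in cluster 17, led by G0s2 and Cxcl2, and 1.49% on day 14 and 55.8% on day 5 in cluster 9, led by Camp and Ngp. Summed neutrophil markers took 84571 and 88876 CPM on day 14 and 230030 and 298470 CPM on day 5 in that class, and CPM is a share of all UMIs of a class. Within cluster 17 Ddit3 had too few counts to test and none of 10 members was called, against 6.42% of all genes. The part of cell composition in the day differences of the whole classes was not tested beyond these values.

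**Figure D5:**
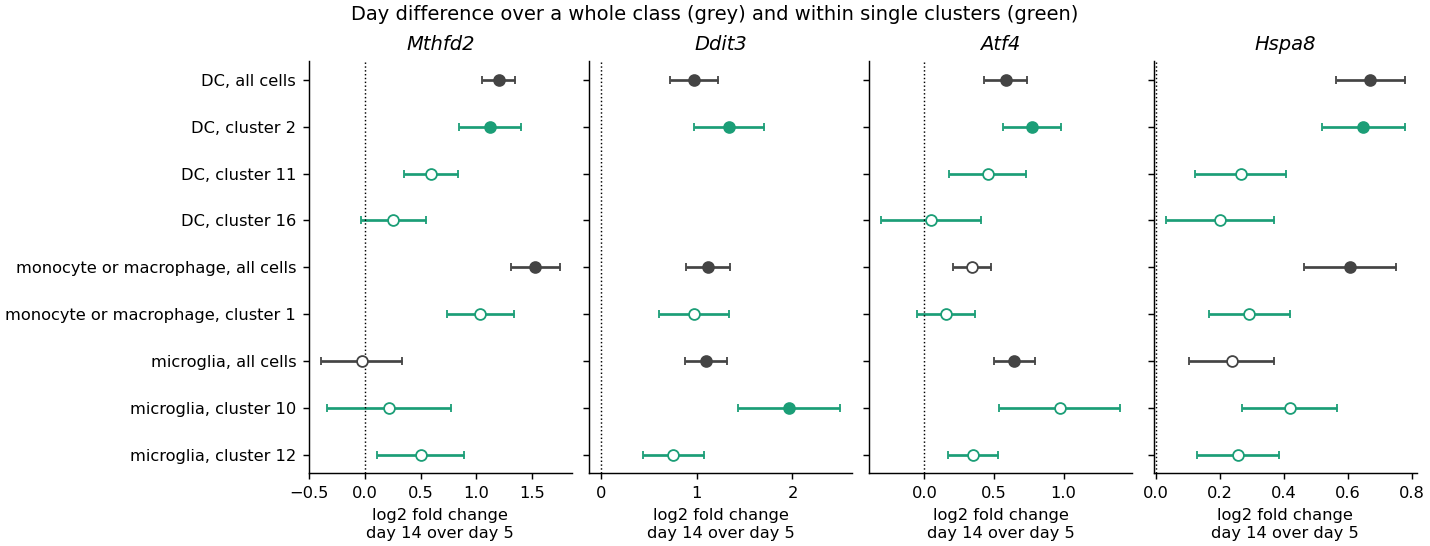
Log2 fold change of day 14 over day 5 for Mthfd2, Ddit3, Atf4 and Hspa8 in all cells of a class (grey) and in the cells of a class that belong to 1 cluster (green). Points are estimates from edgeR, bars are standard errors, filled points have an adjusted p under 0.05, and a missing point was not tested; for Mthfd2 in DC the estimate is 1.20 over all cells, 1.12 in cluster 2, 0.60 in cluster 11 and 0.26 in cluster 16.

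Genes known to respond to tissue dissociation were counted as well. Of 14 such genes tested in DC, 1 was higher and 8 lower on day 14, against 8.16% and 7.04% of all genes. The lower ones included Socs3 (-1.10 ± 0.15), Jun (-0.87 ± 0.17) and Fosb (-0.77 ± 0.16). In neutrophils 7 were higher and none lower, against 12.9% and 6.16% of all genes. The higher ones included Ier3 (2.19 ± 0.20), Zfp36 (1.48 ± 0.21) and Dusp1 (1.62 ± 0.27). Monocytes or macrophages had 2 higher and 1 lower, against 5.34% and 2.15%, with 12 of 14 log2 fold changes above 0. The summed levels in that class were 10720 and 11060 CPM on day 14 and 9450 and 9161 CPM on day 5. Microglia had 1 higher and 1 lower, against 2.54% and 1.13%. The summed list was higher on day 14 in neutrophils and in monocytes or macrophages, and lower in DC, T cells and B cells, without overlap. T cells had 5568 and 5221 CPM on day 14 and 7314 and 7551 CPM on day 5. B cells had 5613 and 4678 CPM on day 14 and 7656 and 8982 CPM on day 5. The share of all genes without overlap was not counted, and the part of this list in the member calls was not tested. Between classes, 13 of the 14 were lower in plasmacytoid DC and none higher, against 10.4% and 11.4% of all genes. In microglia 11 were higher and 1 lower, against 28.1% and 14.2%. Neutrophils had 11 higher and none lower, against 16.4% and 15.2%, and DC 9 higher and none lower, against 21.3% and 9.3%. Monocytes or macrophages had 9 higher and 1 lower, against 27.4% and 13.4%. T cells had none higher and 10 lower, against 19% and 15.5%, and NK cells none higher and 8 lower, against 19.1% and 16.2%. B cells had 4 higher and 6 lower, against 14.1% and 12.9%.

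Other genes of the same pathways were counted from 4 further lists. Among 15 sensors and feedback genes of the unfolded protein response, 13 were tested between classes, and 7 were higher in microglia (28.1% of all genes), 5 in monocytes or macrophages (27.4%) and 4 in plasmacytoid DC (11.4%), with 1 lower in each of the last 2 classes. In B cells 4 were lower (12.9%) and 2 higher (14.1%), and in neutrophils 2 were lower (15.2%) and 2 higher (16.4%). In NK cells 3 were lower (16.2%) and none higher. Edem1 and Edem2, which pass misfolded glycoproteins on for degradation, were called higher in microglia, Edem1 by 1.57 ± 0.13, and Edem2 was higher in plasmacytoid DC by 1.97 ± 0.19. Of 27 genes for entry into the secretory pathway and folding, 26 were tested, and 18 were higher in plasmacytoid DC (11.4% of all genes), 13 in monocytes or macrophages (27.4%) and 11 in microglia (28.1%), where 2 were lower. In B cells 12 were lower (12.9% of all genes), in neutrophils 11 (15.2%) and in T cells 6 (15.5%). In the same order, 2, 1 and 2 of these genes were higher. Spcs2 of the signal peptidase and Sec61b of the translocon were higher in plasmacytoid DC by 1.09 ± 0.12 and 1.04 ± 0.13. Erp29, a folding factor of the same compartment, was higher in microglia (1.28 ± 0.096) and lower in NK cells (-1.60 ± 0.14). Between days, the sensor list had 2 of 12 genes tested lower in DC (Edem2 and Os9), against 7.04% of all genes. In neutrophils 1 of 2 tested was higher, against 12.9%, Ppp1r15a (2.34 ± 0.22), which reverses the PERK block on translation. The secretory list had 1 higher and 4 lower of 26 tested in DC, against 8.16% and 7.04% of all genes. In neutrophils 2 of 17 were lower (Spcs1 and Fkbp2), against 6.16%, and in NK cells 1 of 23 (Tram1), against 1.54%.

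Of 23 further ATF4 and amino acid response genes, 19 were tested between days in DC, monocytes or macrophages and microglia and 3 in neutrophils. The higher ones were Eif4ebp1 in DC (0.77 ± 0.17), Nupr1 in monocytes or macrophages (0.78 ± 0.15) and microglia (0.77 ± 0.17), and Slc7a11, the cystine transporter, in neutrophils (2.14 ± 0.32). Phgdh, the first enzyme of serine synthesis, was lower in microglia (-0.87 ± 0.16), and no other gene of the list was called in these classes. Each class thus had 1 higher (8.16% of all genes in DC, 5.34% in monocytes or macrophages, 2.54% in microglia and 12.9% in neutrophils). The 1 lower in microglia stood against 1.13% of all genes. The medians of the list were 0.070 in DC, -0.0032 in monocytes or macrophages and -0.15 in microglia, against -0.0014, -0.0023 and -0.0084 for all genes. In neutrophils the median of the 3 genes was 1.02, against -0.029. Of 35 further heat shock and cochaperone genes, 1 was called between days, Cct3 in DC (0.62 ± 0.16), a subunit of the cytosolic chaperonin. That was 1 of 29 tested in DC, against 8.16% of all genes called higher. The number tested ran from 10 in neutrophils to 32 in microglia. Between classes, the cochaperone Dnajc7 stood out in plasmacytoid DC (3.09 ± 0.11).

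Over the 32 sums of 8 classes in 4 libraries, the genes whose level was most like the summed endoplasmic reticulum genes were Ddost (Spearman rho 0.927), Fkbp2 (0.890) and Slc35b1 (0.886), followed by Ywhae, Mydgf, Yif1b, Ssr4, Rpn2, Mrfap1 and Necap2 (0.857 to 0.871). They were ranked among 2633 genes with a mean of 50 CPM or more. The 32 sums share libraries and classes, so the values are descriptions.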

How the data were processed

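UMI counts per gene and barcode of 4 libraries were used as the authors deposited them. Cell Ranger 3.0.1, Seurat 2.3.4 and GRCm38 (mm10) are named in the submitters' processing notes; the annotation release is not given in the sources used here. Per the file headers, day 5 matrices name software 3.0.1 and day 14 matrices name none, so upstream differences run along day. Barcodes needed 200 genes and at most 10% mitochondrial UMIs. Classes were gated on marker UMIs, with minimums set after marker counts were seen. Cells with markers of several lineages were left out and no doublet caller was run. Sums per class and library were tested with edgeR 4.0.16 (R 4.3.3, TMM, filterByExpr, quasi-likelihood, Benjamini-Hochberg over all genes tested), which was tested on simulated data. DESeq2 1.42.0, other filters, gates, clusters, cells thinned to 1000 UMIs and left-out libraries were alternatives. The members and lists were chosen with earlier results of these data known. Named were all members called between days in a whole class and, between classes, the 20 largest changes at 50 CPM or more, with further members by role. Cct6a of the further heat shock list was not used here.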

Additional observations from a re-analysis of the deposited data

Results flagged for a closer look

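The day difference of 3 of 32 members differed between the 8 classes in edgeR's class by day test, where 11.1% of all genes were called, so the members' share was not above that of all genes. For Mthfd2 the adjusted p was 0.00070792, for Hspa8 0.045561 and for Hsp90ab1 0.049558. The log2 fold change of Mthfd2 between days was 1.53 in monocytes or macrophages and 1.20 in DC, while its microglia libraries overlapped between days. Leaving out 1 library raised the adjusted p of Mthfd2 to as much as 0.0663, of Hspa8 to 0.252 and of Hsp90ab1 to 0.558.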

How the results depend on the processing

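No count or named value changed direction under the alternatives run. Of the counts of called members, 151 kept within 1.5 times of the reported count, 18 were larger and 27 smaller; of the single-gene values, 354 kept their side of the threshold and 62 lost it. Between days, no filter on low counts gave 2 called members in B cells, 6 in monocytes or macrophages, 0 in neutrophils, 1 in NK cells and 1 in T cells. DESeq2 gave 5 in DC, 0 in microglia and 0 in neutrophils. 1 more UMI in each gate gave 5 in monocytes or macrophages, and classes from clusters gave 2 in neutrophils. Thinning to 1000 UMIs gave 2 in DC, 0 in microglia and 0 in neutrophils. Cells of 1 cluster, chosen after seeing the data, gave 0 (cluster 11), 1 (cluster 16) and 5 (cluster 2) in DC, 1 (cluster 10) and 0 (cluster 12) in microglia, 0 in monocytes or macrophages and 0 in neutrophils, with fewer cells. Replicate numbers did not pair libraries (correlations -0.18 to 0.037); the replicate block gave 0 in microglia and 1 in NK cells. The crossed replicate block, added after seeing the data, gave 2 in B cells and 5 in monocytes or macrophages. Without 1 library the counts ranged from 0 to 2 in B cells, 0 to 2 in microglia, 1 to 4 in monocytes or macrophages, 0 to 1 in neutrophils, 0 to 3 in NK cells, 0 to 2 in plasmacytoid DC and 0 to 1 in T cells; the lone library of a day was then assumed to vary like the other day's. Between classes, clusters gave 16 in NK cells, thinning gave 3 in NK cells, 5 in plasmacytoid DC and 13 in T cells, and leaving out 1 library gave 12 to 17 in T cells and 11 to 16 in neutrophils. Apart from fewer cells or UMIs by construction, the cause of these changes was not tested. With RLE factors Hspa8 (0.320) and Hsp90ab1 (0.161) missed the class by day threshold. Depth limits rare genes: Ddit3 in neutrophils rests on 18 and 25 UMIs.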
